A study of Homo sapiens with 36 samples.

Results

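The genes described here are AKAP13, DNAJB6, COX10, BCL11A, CNTLN, HP1BP3, DNAJC12, ZC3HAV1 and HOMER3. All but HOMER3 were chosen because the paper shows them as examples of changed polyA site usage, HOMER3 because cleavage sites at its locus are shown there, and none for its clusters. They are 9 of 62700 genes of GENCODE 44, of which 12711 held at least 1 PAR-CLIP cluster. A cluster was counted for a gene if its middle lay within the gene body on the same strand. The 9 genes held 225 of the 278185 clusters of the series.

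A pre-mRNA is cleaved and polyadenylated at a polyA site, which usually lies a short way downstream of an AAUAAA-type hexamer. Many genes carry further sites upstream of the last one. These can lie earlier in the same last exon or in an alternative last exon that is otherwise spliced out. They can also lie where an internal exon runs on into the following intron. Use of an early site gives a shorter mRNA. It often encodes a truncated protein where the site lies upstream of the last exon. A site within the last exon can leave the protein unchanged. SCAF4 and SCAF8 are RNA-binding proteins that contact the phosphorylated C-terminal domain of RNA polymerase II.

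PAR-CLIP was carried out in Flp-In T-REx HEK293 cells, a human embryonic kidney line, stably expressing FLAG-SCAF4 or FLAG-SCAF8 from a doxycycline-inducible construct, and in parental cells without a tagged protein. All cells received 100 μM 4-thiouridine overnight and a further 500 μM for 2 h, and were crosslinked at 365 nm with 2000 J/m2. The labels give 100 ng/mL doxycycline for the FLAG lines and no dose for the parental cells. The methods of the paper give a higher dose, and name the parental cells as well, and which applies was not settled. For each line there were 3 replicates of a FLAG IP and of its input, the RNA of the extract used for that IP, so that the 36 samples (soluble and chromatin fractions) gave 18 cluster lists with both fractions combined. The FLAG IP of the parental cells is called control IP.

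The lists differed in length, with 18287 to 54404 clusters in the 6 SCAF4 and SCAF8 IP lists, 1621 to 9638 in the 3 control IP lists and 4567 to 12493 in the 9 inputs. Counts per gene are therefore also given per 10000 clusters of the list. The lists hold only clusters that passed the caller and no read counts, so depth is unknown and a gene without a cluster may still have had reads. RNA of a higher level gives more clusters in any list, and level and binding cannot be told apart from these lists alone, which is why inputs are given beside every IP value. The expressed constructs were visible in the inputs, since the SCAF4 gene held 16 to 17 clusters in the SCAF4 inputs and 1 to 7 in the others, and the SCAF8 gene held 18 to 20 in the SCAF8 inputs and 1 to 10 in the others.

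In the named genes the SCAF4 IP lists held 97 clusters, the SCAF8 IP lists 62, the control IP lists 8 and all 9 inputs 58. Clusters lay in 8 of the 9 genes, and HOMER3 had none in any list. Most of the clusters fell into HP1BP3 and DNAJB6. AKAP13 held 28 clusters in the SCAF4 and SCAF8 IP lists and 2 in all inputs, and DNAJC12 held 7 and 0. Clusters that overlapped on the same strand in any of the lists were joined into sites, 72 in all. Their exact place relative to early transcript ends differed from gene to gene. An early end is the end of a protein-coding or nonsense-mediated decay transcript at least 1000 nt upstream of the end of the canonical transcript, and 8 of the 9 genes have at least 1. Some early ends, such as those of HP1BP3-201 and AKAP13-201, lie within the last canonical exon.

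**Figure D1:**
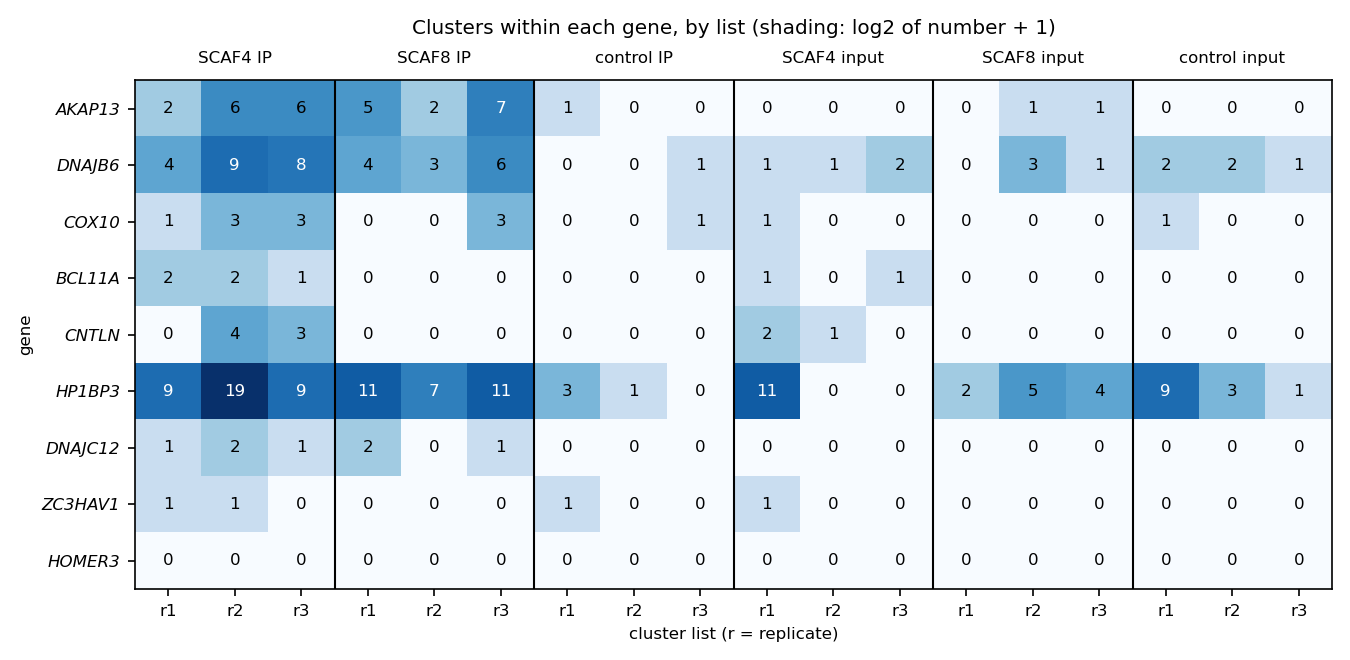
Number of clusters within each of the 9 named genes (vertical axis) in each of the 18 lists (horizontal axis), with the number printed and shaded in each cell. HP1BP3 reached 19 clusters in a SCAF4 IP list, DNAJC12 had clusters in IP lists only, and HOMER3 was at 0 in every list.

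DNAJC12 encodes a J-domain co-chaperone that works with HSP70 on the aromatic amino acid hydroxylases. Its canonical transcript has 5 exons and 198 codons, and DNAJC12-202 ends early, in an extension of exon 3 into intron 3, with 107 codons. Clusters lay at only 2 places in the gene, both at exons, and both sites spanned a 5′ splice site. The site at exon 3 (chr10:67811402-67811650, minus strand, GRCh38) held clusters of SCAF4 IP replicates 1, 2 and 3 and of SCAF8 IP replicates 1 and 3. It crosses from the canonical exon into the part that only the short transcript keeps, and its middle lies 684 nt upstream of the end of DNAJC12-202. The annotated end of a nonsense-mediated decay transcript, DNAJC12-203, falls at the middle of the site. No input and no control IP list had a cluster there. The second site (chr10:67837933-67838070) lies on the 5′ splice site of exon 1 and was present in SCAF4 IP replicate 2 and SCAF8 IP replicate 1. Most of the stretch that the clusters of all 5 lists share at exon 3 is shown because it covers the junction between the long and the short mRNA, and capitals mark any of 8 words that were searched for, namely CGG and CGA, then CCAGC with CCAGG, as well as GCAGC with GCAGG, and lastly CTCC with CACC.
DNAJC12 site 2, chr10:67811500-67811583, minus strand: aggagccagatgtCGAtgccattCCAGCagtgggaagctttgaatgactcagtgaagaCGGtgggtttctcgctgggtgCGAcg

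ZC3HAV1 encodes a zinc finger antiviral protein that binds CpG-rich viral RNA and is made in long and short forms. Its only site (chr7:139060801-139060933, minus strand) lies in intron 9, inside the last exon of ZC3HAV1-202 and ZC3HAV1-204 and outside the canonical exons. The middle of the site is 529 nt upstream of that early end, and ZC3HAV1-204 encodes 699 codons against 902 in the canonical transcript. Clusters were present in SCAF4 IP replicates 1 and 2, in control IP replicate 1 and in SCAF4 input replicate 1, and in no SCAF8 list. The site was thus also found without a tagged protein and before the IP.

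DNAJB6 encodes a J-domain co-chaperone that suppresses protein aggregation. It held 4, 9 and 8 clusters in SCAF4 IP replicates 1 to 3, 4, 3 and 6 in SCAF8 IP, 0, 0 and 1 in control IP, and 0 to 3 in the 9 inputs. Of its 18 sites, 13 lie in introns and 7 of those in intron 5, upstream of the early ends. The most widely shared of them (site 12, chr7:157374955-157375114) held clusters in all 6 IP lists, in 8 of 9 inputs and in 1 control IP list. Another in the same intron (site 7, chr7:157368379-157368619) held clusters of SCAF4 IP replicates 1 and 2 and SCAF8 IP replicates 2 and 3 and of no other list. The next early end lies 13773 nt downstream of it and is that of DNAJB6-207. This is a nonsense-mediated decay transcript whose annotated last exon is only 27 nt within exon 6. DNAJB6-204 ends in an extension of exon 8 into intron 8 and encodes 241 codons against 326. Of the 18 sites, 2 lie in this exon, 759 and 294 nt upstream of its end, the former in SCAF4 IP replicate 2 and the latter in SCAF4 IP replicate 3 and control input replicate 2. The IP clusters of DNAJB6 thus lay mainly upstream of its alternative last exon, and the few within it came from a single IP list each.

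CNTLN encodes centlein, a protein of the centrosome linker. It held 0, 4 and 3 clusters in SCAF4 IP replicates 1 to 3, 2, 1 and 0 in the SCAF4 inputs, and none in the SCAF8 or parental lists. All 6 of its sites lie in introns 1 and 2, between 1199 and 31897 nt from the transcript start. Its early transcript, CNTLN-201, with 391 codons against 1406, ends 135114 nt downstream of the nearest of them. Only site 6 (chr9:17166862-17167012, intron 2) recurred in more than 1 IP list, SCAF4 IP replicates 2 and 3, with no cluster in an input.

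COX10 encodes the farnesyltransferase of the heme A pathway, which serves cytochrome c oxidase. Its clusters numbered 1, 3 and 3 in SCAF4 IP replicates 1 to 3, 0, 0 and 3 in SCAF8 IP, 0, 0 and 1 in control IP, and 1 in each of 2 of the 9 inputs. COX10-202 ends in an extension of exon 3, with 171 codons against 443. Site 1 (chr17:14076853-14077011) lies in exon 3, 390 nt upstream of that end, with clusters of SCAF4 IP replicates 2 and 3, SCAF8 IP replicate 3 and SCAF4 input replicate 1. Site 3 (chr17:14120344-14120588) lies in intron 4, far downstream of this early end, and was present in SCAF4 IP replicates 1, 2 and 3 and SCAF8 IP replicate 3 and in no input or control IP list. Only 1 of the 5 COX10 sites therefore lies close to the early end, and that site was not particular to the IP lists.

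BCL11A encodes a zinc finger repressor of fetal globin genes. Its clusters were found in the SCAF4 line alone, with 2, 2 and 1 in SCAF4 IP replicates 1 to 3, 1, 0 and 1 in the SCAF4 inputs and 0 in the 12 lists of the other lines. All 4 of its sites lie in or just behind exon 2, within the last exons of early transcripts. Site 2 (chr2:60544271-60544393, minus strand) was present in all 3 SCAF4 IP lists and nowhere else, and it almost fills the last exon of BCL11A-208, a cryptic exon of 162 nt within intron 2. Its middle lies 102 nt upstream of that end, the shortest such distance upstream of an early end among the 72 sites. Site 4, further downstream in the same intron, held clusters of SCAF4 inputs 1 and 3 only.

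AKAP13 encodes an anchoring protein for protein kinase A. It held 2, 6 and 6 clusters in SCAF4 IP replicates 1 to 3 and 5, 2 and 7 in SCAF8 IP, against 1, 0 and 0 in control IP, 0 in each SCAF4 and control input, and 0, 1 and 1 in the SCAF8 inputs. Every IP list was above every input and every control IP list in these numbers. The control IP cluster and both input clusters lay at the same place, site 7 (chr15:85579482-85579703) in exon 7, and the other 10 sites were found in SCAF4 or SCAF8 IP lists only. Sites 3 to 9 lie in exons 4 to 8, and among them site 3 (chr15:85533597-85533873, exon 4) falls into the last exon of AKAP13-217, which encodes 179 codons against 2813. The end of that transcript is 3262 nt further downstream. Sites 1 and 2 lie in intron 1, more than 20 kb from the start, and belonged to SCAF8 alone, with clusters of all 3 SCAF8 IP lists at site 1 (chr15:85401165-85401264) and of replicates 1 and 3 at site 2.

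HP1BP3 encodes a linker histone-like protein that binds HP1. It had the most clusters, 9, 19 and 9 in SCAF4 IP replicates 1 to 3, 11, 7 and 11 in SCAF8 IP, 3, 1 and 0 in control IP, and 0 to 11 in the 9 inputs, with 11 in SCAF4 input replicate 1 and 0 in SCAF4 input replicates 2 and 3. Many of the 25 sites were therefore shared with inputs. Sites 7, 20 and 22 were present in all 3 SCAF4 IP lists and in 2 SCAF8 IP lists, with no cluster in an input or control IP list. They lie at exon 3 (chr1:20779794-20780061, minus strand), exon 10 (chr1:20749727-20749940) and exon 12 (chr1:20745540-20745659), each across at least 1 splice site. Near the early ends the pattern was another one. Site 11 (chr1:20775193-20775763), which reaches across the end of HP1BP3-202 in intron 4, held clusters of 5 IP lists and of 6 inputs. Site 25 in the 3′ UTR, 148 nt upstream of the end of HP1BP3-201, was present in SCAF8 IP replicate 1 and control input replicate 1. HP1BP3-201 ends within the last canonical exon and has 553 codons, the same number as the canonical transcript.

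HOMER3 encodes a scaffold protein of the postsynaptic density. It held no cluster in any list, and no annotated end of it met the definition of an early end.

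**Figure D2:**
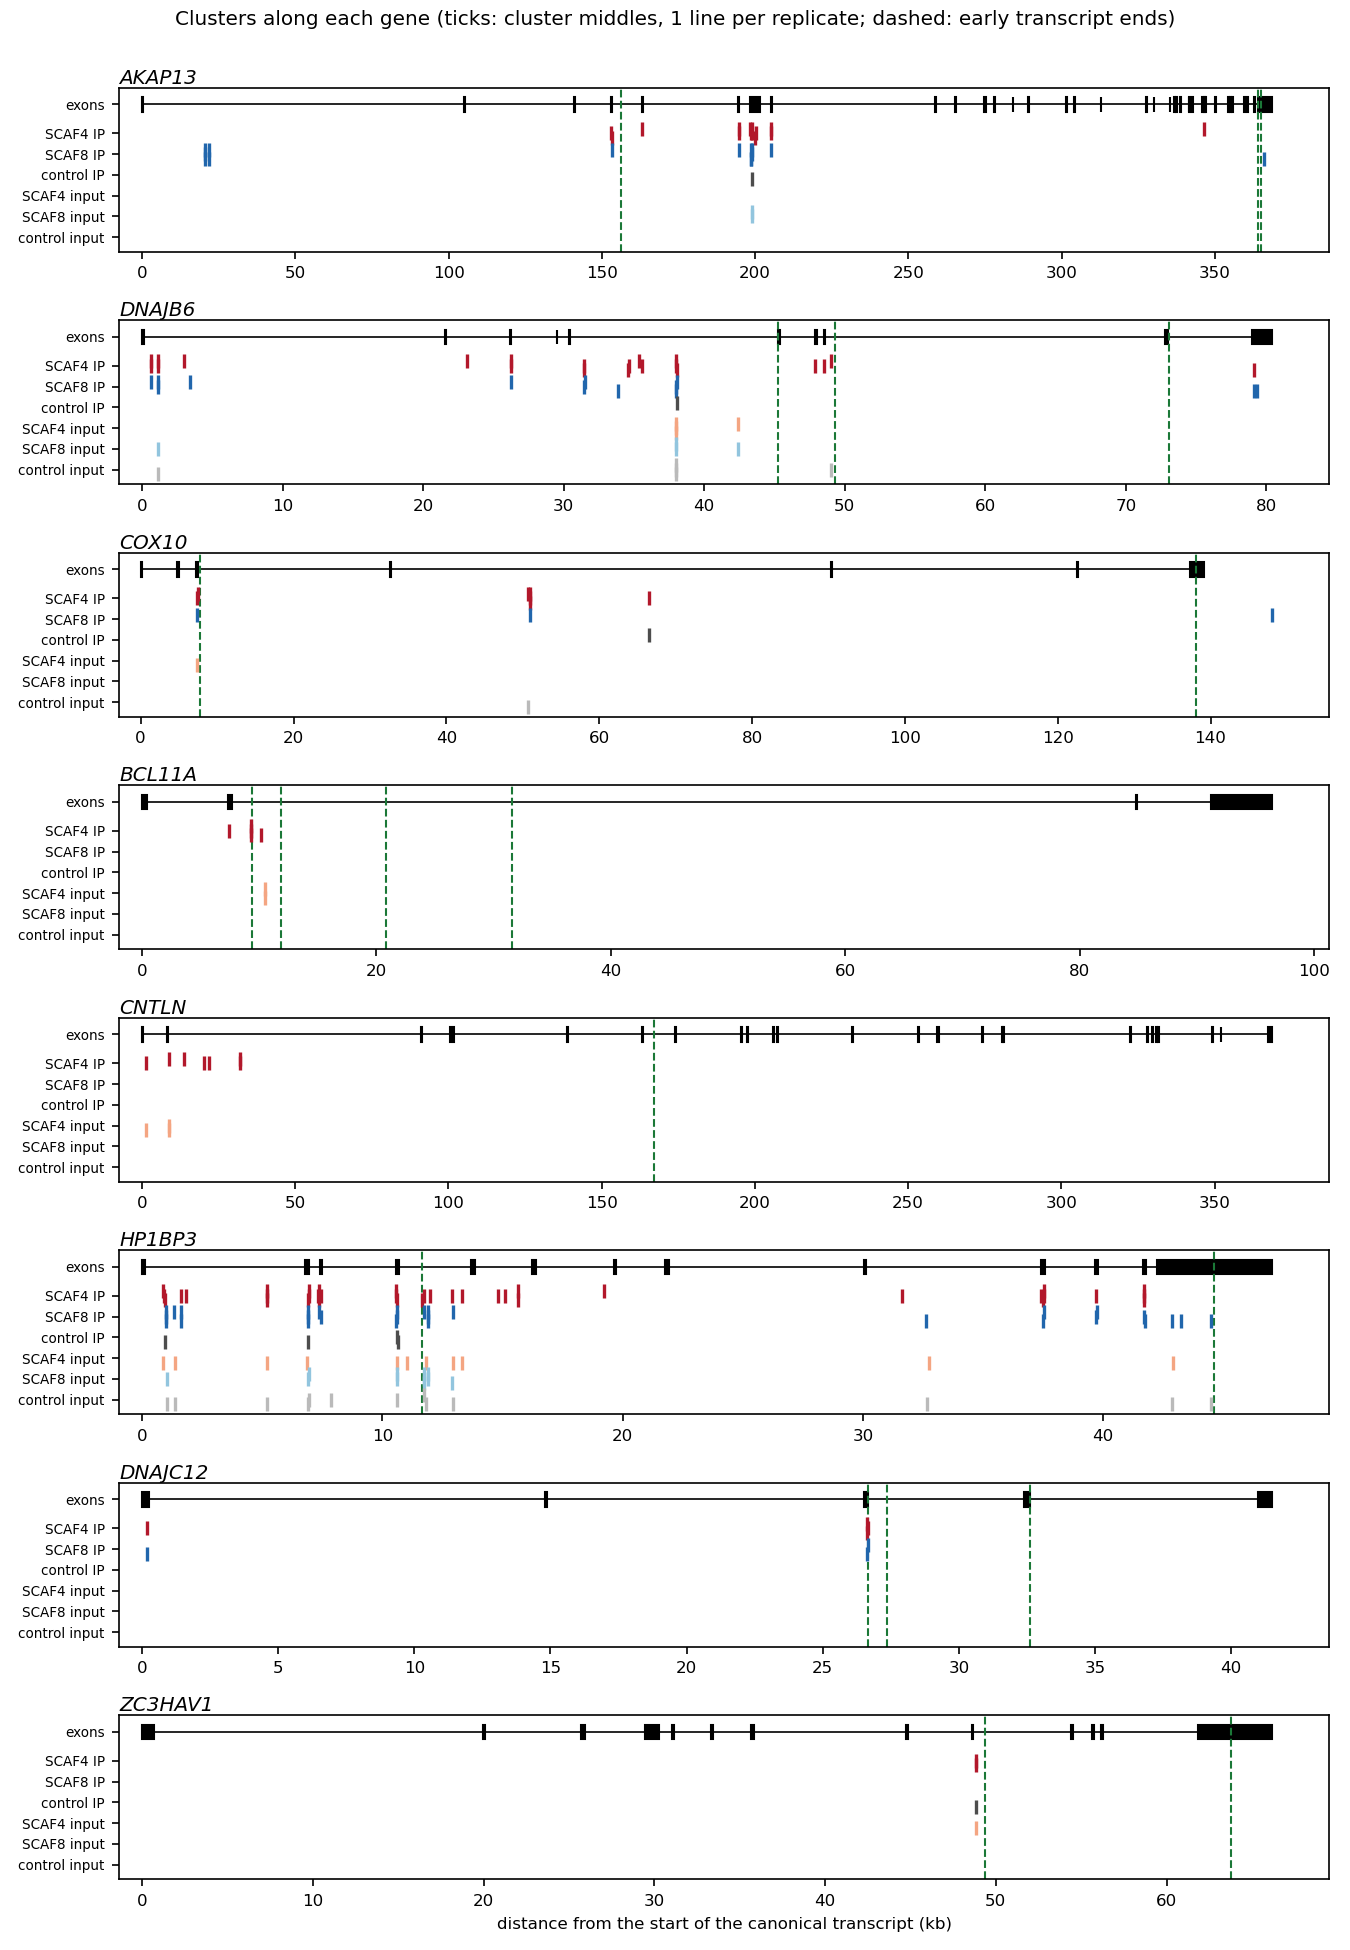
Cluster middles (ticks, 1 line per replicate, coloured by list group) along 8 of the named genes, with the distance from the start of the canonical transcript in kb on the horizontal axis, canonical exons in black and early transcript ends as dashed lines. The CNTLN clusters stop 135114 nt short of its early end, and the BCL11A clusters gather within 2001 nt of the end of BCL11A-208.

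**Figure D3:**
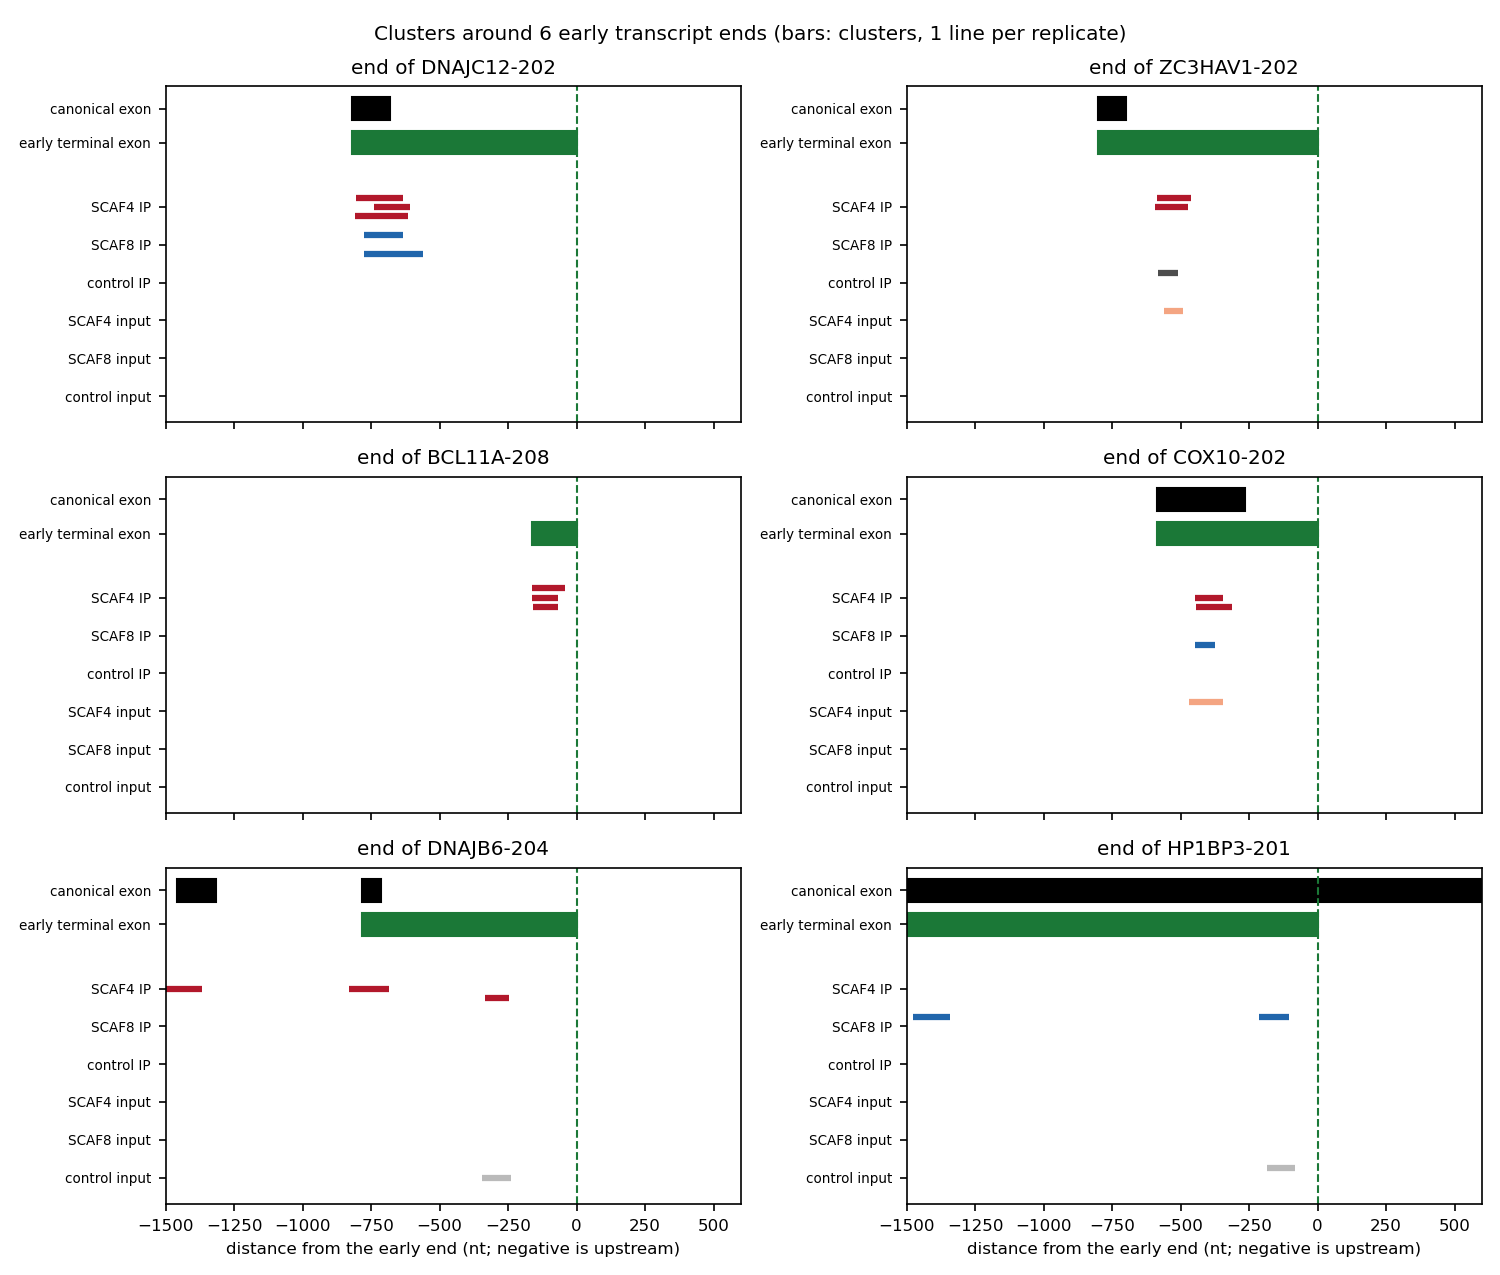
Clusters (bars, 1 line per replicate) around 6 early ends, drawn by their distance from the end in nt, with canonical exons in black and the early last exon in green. Clusters of all 3 SCAF4 IP lists lie 102 nt (middle of the site) before the end of BCL11A-208 and 684 nt before that of DNAJC12-202, and neither place has a cluster in an input.

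Sequences of recurrent sites are shown to let the words searched be seen in place. Each is the stretch common to the clusters of the lists named above, or a part of it, on the transcribed strand of GRCh38. The first 3 are the HP1BP3 sites seen in 5 IP lists and no input.
HP1BP3 site 7, chr1:20779820-20779893: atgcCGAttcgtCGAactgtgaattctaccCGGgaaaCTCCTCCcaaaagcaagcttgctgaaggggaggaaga
HP1BP3 site 20, chr1:20749735-20749829: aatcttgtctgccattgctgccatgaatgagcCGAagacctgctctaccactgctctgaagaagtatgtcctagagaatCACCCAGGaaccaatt
HP1BP3 site 22, chr1:20745548-20745629: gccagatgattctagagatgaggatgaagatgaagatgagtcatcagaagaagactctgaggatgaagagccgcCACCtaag
The next are exonic sites of AKAP13 and COX10 and intronic sites of COX10, CNTLN, DNAJB6 and AKAP13.
AKAP13 site 9, chr15:85585704-85585804: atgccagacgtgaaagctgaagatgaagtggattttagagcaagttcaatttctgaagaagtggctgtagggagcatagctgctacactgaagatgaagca
COX10 site 1, chr17:14076879-14076949: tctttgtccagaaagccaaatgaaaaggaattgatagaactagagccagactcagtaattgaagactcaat
COX10 site 3, chr17:14120477-14120552: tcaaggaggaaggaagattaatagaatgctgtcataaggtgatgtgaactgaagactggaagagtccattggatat
CNTLN site 6, chr9:17166878-17166990: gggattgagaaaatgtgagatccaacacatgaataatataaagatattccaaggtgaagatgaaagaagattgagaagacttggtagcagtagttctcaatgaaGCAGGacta
DNAJB6 site 7, chr7:157368409-157368471: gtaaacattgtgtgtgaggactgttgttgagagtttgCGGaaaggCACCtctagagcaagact
AKAP13 site 1, chr15:85401199-85401238: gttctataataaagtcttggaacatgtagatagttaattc

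The 8 words were counted in 100 nt around the middle of each site, on the transcribed strand only, and words may share letters. Of the 68 sites with a SCAF4 or SCAF8 IP cluster, 66.2% held CGG or CGA, against 64.2% of the 76395 such sites of all genes. The shares were 35.3% against 43.6% for the 4 words ending in AGC or AGG, and 38.2% against 48.5% for CTCC or CACC. The median GC content was 43% in the named genes and 49% over all genes. These are descriptions without a test.

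Hexamers were searched in the 50 nt before each end. An AATAAA or ATTAAA was present before 8 of the 20 early ends of the named genes and before 8 of their 9 canonical ends, and over all genes before 5259 of 21027 early and 15507 of 20046 canonical ends. The early ends of AKAP13-217, DNAJB6-204, COX10-202, CNTLN-201 and HP1BP3-201 had one, as had 3 of the 4 early ends of BCL11A. Those of DNAJB6, COX10, CNTLN and HP1BP3 are printed as examples, with the hexamer in capitals, within 30 nt. No hexamer of these 2 forms was found before the ends of DNAJC12-202, ZC3HAV1-202 and BCL11A-208, each of which has a site of at least 2 IP lists within 1000 nt upstream, as has COX10-202.
DNAJB6-204, chr7:157386275-157386304, plus strand: agaaAATAAAtgcgaatgtgttggtgcatt
COX10-202, chr17:14077284-14077313, plus strand: ctttcctttgcaATTAAAgttgaatgttta
CNTLN-201, chr9:17302011-17302040, plus strand: aAATAAAgctgcAATAAAcatttctttgtc
HP1BP3-201, chr1:20742685-20742714, minus strand: ttgaaaaatatgAATAAAcatgaaatttta

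Whether the named genes took a larger share of the IP lists than of the inputs was tested gene by gene. AKAP13 had 1.45 ± 0.412 clusters per 10000 (SD, n = 6) in IP of SCAF4 or SCAF8 and 0.346 ± 0.538 (SD, n = 6) in their own inputs. DNAJC12 had 0.371 ± 0.270 in the IP lists and was at 0 in all 6 inputs. The IP and input lists of AKAP13 and of DNAJC12 overlapped in part, and those of the other genes overlapped widely. HP1BP3 had 3.62 ± 0.866 against 3.47 ± 3.57, DNAJB6 1.80 ± 0.352 against 1.83 ± 1.51, COX10 0.447 ± 0.370 against 0.142 ± 0.348, BCL11A 0.286 ± 0.410 against 0.490 ± 0.853, and CNTLN 0.270 ± 0.421 against 0.610 ± 0.949 (SD, n = 6 each). Each n of 6 pools the lists of the SCAF4 and SCAF8 lines. BCL11A and CNTLN had no cluster in any SCAF8 list, so their SDs include that difference between lines. The inputs of AKAP13, HP1BP3, DNAJB6, BCL11A and CNTLN varied more between lists than the IP lists did, and those of COX10 and DNAJC12 did not.

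The test was a two-sided exact permutation of the list labels in each gene with at least 5 clusters in the 12 lists, with Benjamini-Hochberg adjustment over all 8159 of them. It called 609 genes higher in the IP lists (7.46% of those tested) and 480 lower (5.88%). None of the 7 named genes tested was called in either direction, 0 of 7, while 2 of them, AKAP13 and DNAJC12, had an unadjusted p below 0.05 in this exact permutation test, as did 2557 of all 8159 genes tested. AKAP13 had an unadjusted p of 0.00866 and an adjusted p of 0.0596 by exact permutation, and its adjusted p ranged from 0.0160 to 0.250 over 13 alternatives, in all of which it was higher in IP. DNAJC12 had an unadjusted p of 0.0152 and an adjusted p of 0.0632 in the exact permutation test, with a range of 0.0391 to 0.370 over 10 alternatives. The other 5 had adjusted p-values of 0.344 to 1 by exact permutation, and ZC3HAV1 and HOMER3, with 3 and 0 clusters, were below the minimum. Of the 7 genes, 4 had a higher mean in the IP lists, and over all tested genes 65.3% did. An IP and its input share an extract, so labels were also exchanged only within replicate numbers, though across the SCAF4 and SCAF8 lines. This gave 0 calls among all genes in either direction, and AKAP13 then had an adjusted p of 0.0696 by exact permutation. Fewer labelings are possible in that setting, which sets a higher smallest p, so the absence of calls decides nothing.

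The result depended on the scale. In numbers of clusters without scaling to list length, 3247 genes were called higher in the IP lists (39.8%), among them 4 of the 7 named genes, AKAP13, DNAJB6, HP1BP3 and DNAJC12. Their mean numbers were 4.67 against 0.333 for AKAP13, 5.67 against 1.33 for DNAJB6, 11 against 3.67 for HP1BP3 and 1.17 against 0 for DNAJC12. AKAP13 was the only one of them whose IP and input lists did not overlap. With labels exchanged within replicate numbers on this scale, an alternative added after the data had been seen, 1653 genes were called and 1 named gene, AKAP13, at an adjusted p of 0.0457 by exact permutation. The greater length of the IP lists enters the unscaled numbers directly.

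**Figure D4:**
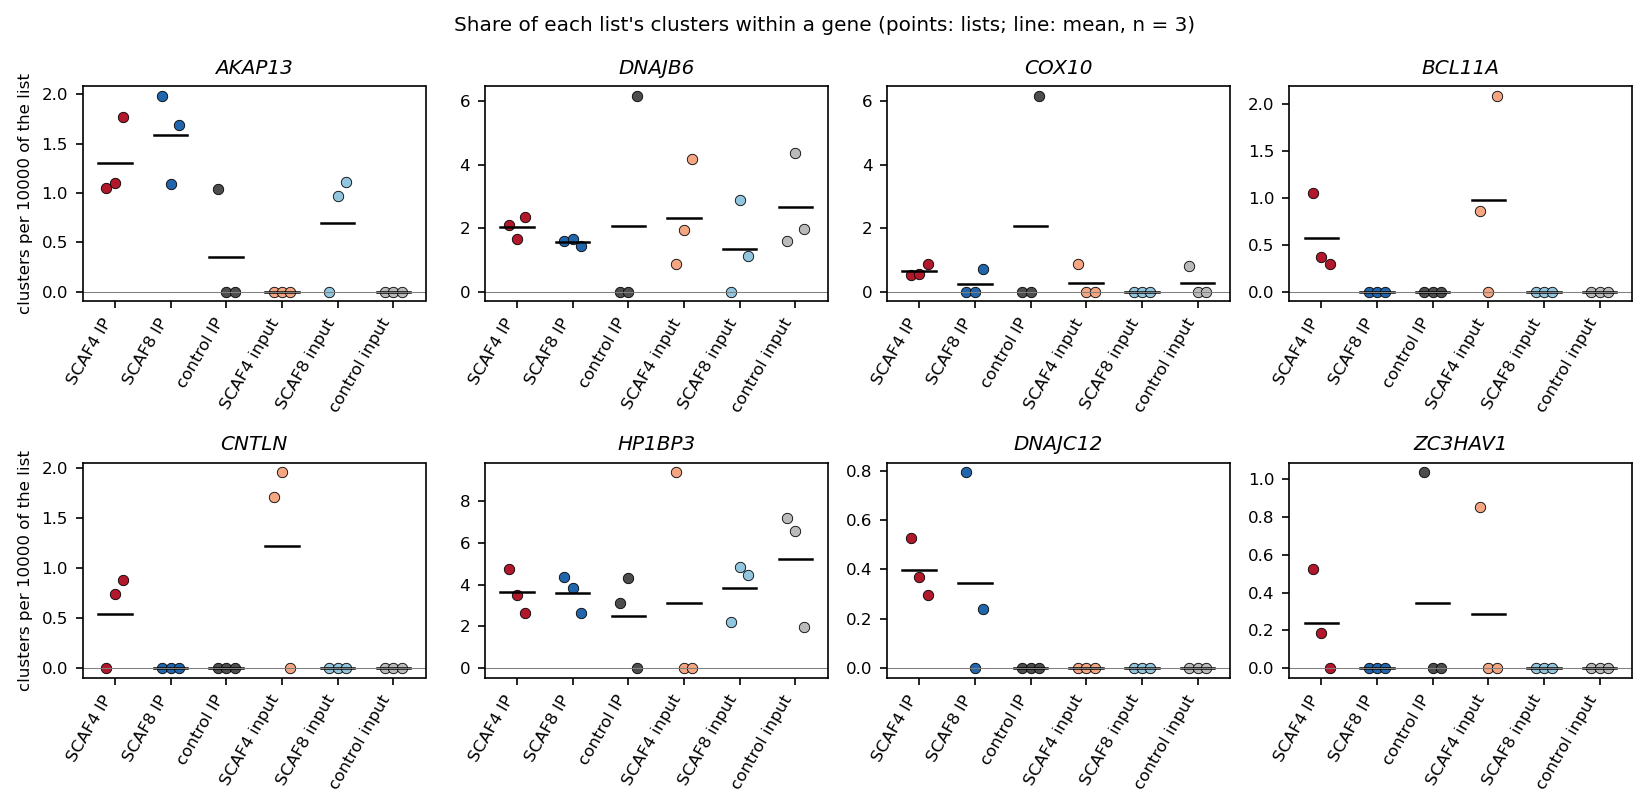
Clusters per 10000 clusters of the list for 8 named genes (vertical axes differ between panels), with each list as a point and the mean of 3 lists as a line, by list group. The 6 SCAF4 and SCAF8 IP lists of AKAP13 lie between 1.05 and 1.98, and the highest input reaches 1.11.

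Against the control IP the lists are few and short, and the smallest p that 6 against 3 lists allow is 0.0119. No gene was called higher (0% of 7882) or lower (0%) by the exact permutation test after adjustment, and none was called higher in unscaled numbers (0%), while 2009 genes had an unadjusted p below 0.05. Of the named genes, 0 of 7 were called and 1 had an unadjusted p below 0.05. This was AKAP13, at 0.346 ± 0.599 clusters per 10000 in control IP (SD, n = 3), with an exact permutation p of 0.0119 and an adjusted p of 0.0826. Its lowest SCAF IP list, at 1.05, was just above its highest control IP list, at 1.04. COX10 and DNAJB6 reached 6.17 clusters per 10000 in control IP replicate 3, which is 1 cluster each in the shortest list of the series.

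At the level of sites, a region with clusters in at least 4 of the 12 lists was tested by Fisher's exact test on the number of IP and input lists with a cluster. Presence was not scaled to list length, so the greater length of the IP lists enters this test directly. Over all genes 990 of 20794 sites (4.76%) were called as present in more IP lists and 0 as present in fewer. None of the 17 sites tested in the named genes was called, with 4 at an unadjusted p below 0.05, as were 3973 of the 20794 sites. These are HP1BP3 sites 7, 20 and 22 and DNAJC12 site 2, each in 5 of 6 IP lists and 0 of 6 inputs, with p = 0.0152 and an adjusted p of 0.0793 by Fisher's exact test. No named site was in all 6 IP lists and no input, which is what a call needed. COX10 site 3, DNAJB6 site 7 and AKAP13 site 6 followed, with clusters in 4 IP lists and no input (p = 0.0606, adjusted p = 0.146, Fisher's exact test). HP1BP3 site 1 had the same p, with clusters in 6 IP lists, 2 of their inputs and 1 control IP list. Of the 68 sites with an IP cluster, 34 recurred in at least 2 IP lists (50% against 54.1% over all genes), and 23 of these were in no input or control IP list (33.8% of the 68 against 29.4%). Paired by replicate number and line, the test called no site in any gene. With so few pairs its smallest p is too high for a call after adjustment unless most sites reach it, so this outcome decides nothing.

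SCAF4 and SCAF8 were then compared with each other. BCL11A, with 0.572 ± 0.419 clusters per 10000 in SCAF4 IP and 0 in all 3 SCAF8 IP lists, and DNAJB6, with 2.04 ± 0.355 against 1.56 ± 0.101 (SD, n = 3), were the 2 of 7 named genes whose SCAF4 and SCAF8 IP lists did not overlap. Over all genes 1229 of 7745 did not (15.9%), 756 with SCAF4 and 473 with SCAF8 on top. In unscaled numbers the DNAJB6 lists overlapped and those of BCL11A did not. BCL11A also had clusters in the SCAF4 inputs and in no input of the other lines, as had CNTLN. These were only 2 clusters for BCL11A and 3 for CNTLN, and a gene without a cluster may still have had reads. A difference in level between the lines was not tested. AKAP13 had 1.31 ± 0.398 in SCAF4 IP and 1.59 ± 0.454 in SCAF8 IP, and HP1BP3 3.63 ± 1.05 and 3.62 ± 0.878 (SD, n = 3). With 3 lists against 3 an exact permutation test cannot go below p = 0.1, so no gene could be called different between the proteins.

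Of the 68 IP sites, 25 had clusters of both proteins (36.8% against 41.9% over all genes), 31 of SCAF4 only (45.6% against 35.6%) and 12 of SCAF8 only (17.6% against 22.5%). The SCAF4 IP lists had the higher median length, 33962 against 25189 clusters. Among 13 named sites with clusters in all 3 lists of a protein, 3 had none of the other protein, and over all genes 1293 of 14947 did (8.65%). The 3 are BCL11A site 2 and HP1BP3 site 5 for SCAF4 and AKAP13 site 1 for SCAF8. HP1BP3 site 5 (chr1:20782032-20782191, intron 1) also had clusters in SCAF4 input replicate 1 and control input replicate 1.

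The clusters were also placed by region and set beside the clusters of the 9327 protein-coding genes that have an early end. In IP lists of SCAF4 or SCAF8, 15.1% of the 159 clusters of the named genes lay within 1000 nt of an early end (SD over the 6 lists 5.50 percentage points), against 20.1% of the 112743 clusters of all such genes. In the inputs the shares were 22.4% and 24.4%. By this definition of early ends, clusters of the named genes were therefore not more often near an early end than those of other genes in these lists. A share of 14.5% lay in an early last exon (SD 8.33), against 10.7% over all, with 16.5% against 10.5% for SCAF4 and 11.3% for SCAF8, where it was 5443 of 49326 clusters over all. For the part of such exons that the canonical transcript does not use, the shares were 5.66% against 1.24% in the IP lists and 6.90% against 1.47% in the inputs. By protein, these were 8 of 97 SCAF4 IP clusters (8.25% against 1.22%) and 1 of 62 SCAF8 IP clusters (1.61% against 1.26%). The 4 input clusters were 3 in SCAF4 inputs and 1 in control inputs, with 0 of 17 in SCAF8 inputs. The 9 IP clusters of this kind comprise 4 of BCL11A, 2 of ZC3HAV1, 2 of DNAJC12 and 1 of DNAJB6.

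Introns held 55.3% of the IP clusters of the named genes (SD 9.34) and coding exons 39.6% (SD 5.34), against 33.7% and 47.0% over all genes with an early end. The inputs were even more intronic in these genes, 74.1% against 40.3%. The first intron held 18.2% of the IP clusters against 10.4%, mainly in DNAJB6, HP1BP3 and AKAP13. Among the 34 recurrent sites, 15 lie in coding exons, 18 in introns and 1 in a 3′ UTR, and 32.4% span a splice site, against 44.9% of the 36128 recurrent sites in protein-coding genes.

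**Figure D5:**
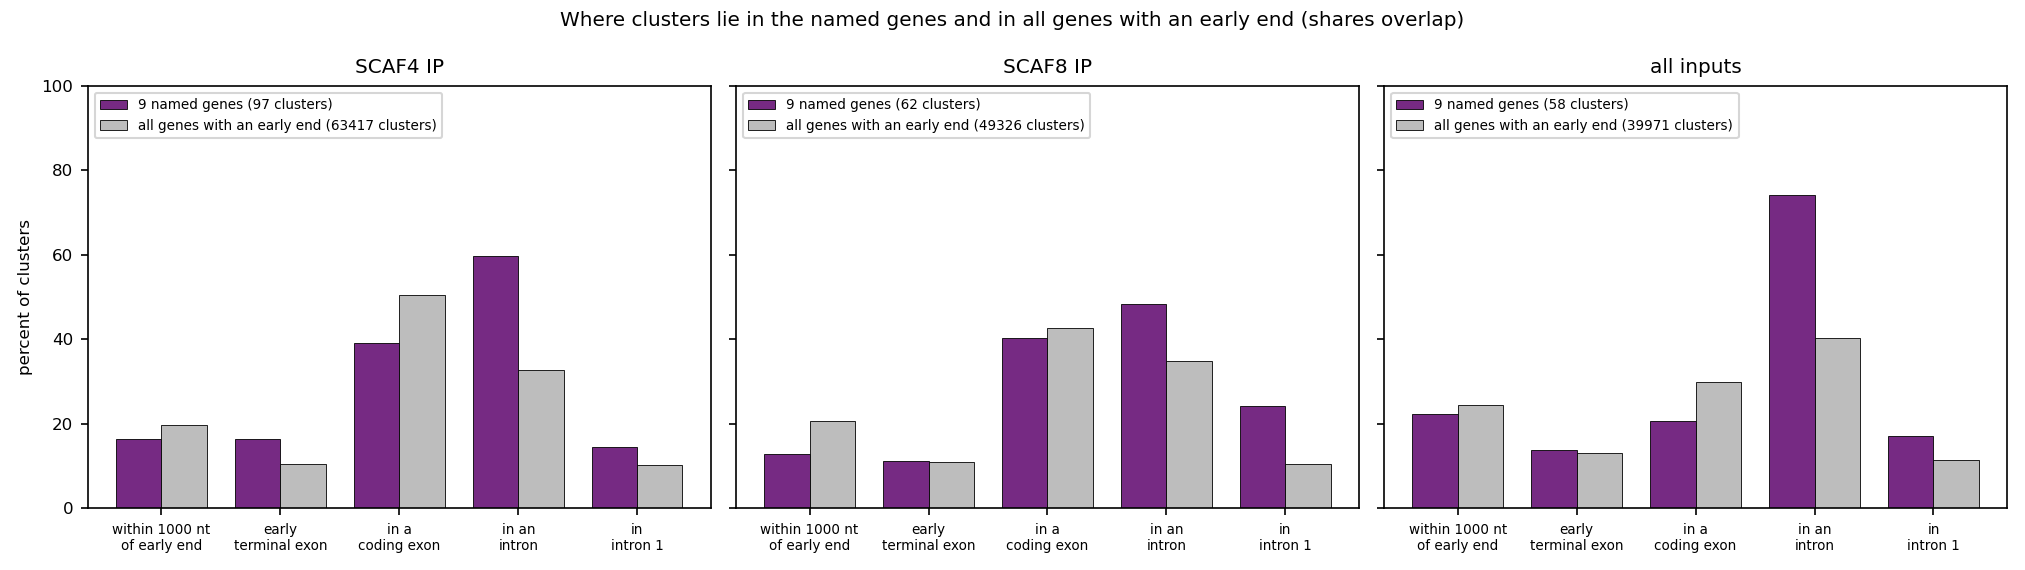
Percent of clusters within 1000 nt of an early end, in an early last exon, in a coding exon, in an intron and in intron 1 (categories overlap), for the named genes and for all protein-coding genes with an early end, in SCAF4 IP, SCAF8 IP and all inputs. Intron shares are higher in the named genes in each panel, reaching 74.1% in the inputs, and shares near an early end are lower.

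Relatives of the named genes were looked at in the same test of IP lists against own inputs, in which 7.46% of all genes tested were called higher and 5.88% lower. Among 47 other genes of J-domain proteins, the family of DNAJB6 and DNAJC12, 20 were tested, 2 were higher in IP and none lower, with a median difference of 0.415 clusters per 10000 against 0.229 over all genes. DNAJC11, a mitochondrial J-domain protein, rose by 2.52 and DNAJC2, a ribosome-associated one, by 1.01 (adjusted p = 0.0221 for each, exact permutation). Among 14 A-kinase anchoring protein genes besides AKAP13, 8 were tested and AKAP10 was higher, by 1.21 (adjusted p = 0.0487, exact permutation), with a median of 0.993. Among 24 genes of cytochrome c oxidase assembly, the pathway of COX10, 13 were tested and TACO1, a translational activator of COX1, was higher, by 0.710 (adjusted p = 0.0221, exact permutation), with a median of 0.0468. Of 14 HP1 and linker histone genes, related to HP1BP3, 8 were tested and 3 were lower in IP, with a median of -1.08. These were TRIM28, a corepressor that recruits HP1, at -5.07, CBX3, which encodes HP1γ, at -2.66, and the linker histone gene H1-4 at -1.33 (adjusted p = 0.0221 for each, exact permutation). In unscaled totals TRIM28 had 64 IP and 40 input clusters and CBX3 30 and 20, so that the direction held only per 10000 clusters, while H1-4 had 6 and 7. USP15 and RAD51C, both also named by the study in connection with polyA sites, differed by 0.523 and 0.339 clusters per 10000, with adjusted p-values of 0.326 and 0.278 in the exact permutation test. In unscaled numbers, where 39.8% of all genes tested were called higher, the genes called higher were 10 of 20 J-domain, 5 of 8 A-kinase anchoring, 4 of 13 cytochrome c oxidase assembly, and 3 of 8 HP1 and linker histone genes, and 1 of the pair USP15 and RAD51C. All counts of calls per 10000 clusters in these lists became 0 when labels were exchanged within replicate numbers.

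The pattern over the 18 lists was set against those of the 4137 genes with clusters in at least 9 lists, for the 3 named genes that qualified. The gene most like AKAP13 was GLYR1 (Spearman correlation 0.962), that most like DNAJB6 was ZSCAN29 (0.828) and that most like HP1BP3 was SLC20A2 (0.791). The lists are shared by all genes and differ in length, and the highest of 4137 values is chosen, so these are descriptions without a test.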

How the data were processed

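The data were 18 lists of PAR-CLIP clusters from 36 samples. The authors removed duplicate reads, aligned to GRCh38 (Bowtie2 2.2.9; Trim Galore, cutadapt, Picard and bcl2fastq 1.8 are also in the submitters' processing notes), pooled the reads of the 2 fractions (soluble, chromatin), and ran PARalyzer to call clusters. The deposited score of a cluster lies between 0.501 and 1, has no stated meaning and served here only to split each list at its median. Filters on input and control IP clusters had not been applied to the lists, and reads were not used here, so that limits on reads and on T-to-C conversions could not be varied. Scores and positions are all that a list gives.

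Clusters were assigned to GENCODE 44 genes by their middle and counted per 10000 clusters of the list. Clusters overlapping by at least 1 nt were joined into sites. Canonical transcripts were MANE Select, else Ensembl canonical. Ends within 100 nt were merged, and transcripts tagged with an incomplete 3′ end were left out. Transcripts without that tag were kept however short their last exon, such as 27 nt in DNAJB6-207 and 50 nt in AKAP13-221. Whether such annotated ends are true polyA sites was not tested. Genes (at least 5 clusters) were tested by two-sided exact permutation of lists, with 924 labelings against own inputs and 84 against control IP. Sites (at least 4 of 12 lists) were tested by Fisher's exact test. Benjamini-Hochberg adjustment ran over all genes or sites, at a threshold of 0.05. Since the smallest p is 0.00216 for genes and sites, a call after adjustment needs many other genes or sites at that value. On simulated lists with 200 genes of 7599 changed by a fold of 4, the gene test called 0 after adjustment and 82% had an unadjusted p below 0.05, and with 2000 of 7730 changed it called 56.7%, with 65 unchanged genes called. Of 200 changed sites of 2668, simulated as present in nearly every IP list and in almost no input, 172 were called. How often a real difference at a gene or site of the deposited lists would be called was not tested.

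The study calls the replicates biological, and the p-values measure the spread between these lists. Replicate numbers pair an IP with its input because an input is a part of the extract that its IP started from. Across 5830 genes, deviations of IP and input from their group means correlated at -0.155 to 0.593 (median 0.174) for the 6 same-numbered pairs and -0.461 to 0.305 (median -0.0815) for the 12 others. At most 0.740% of intervals were identical between any 2 lists, so no 2 lists were the same. The alternatives were no scaling, covered nucleotides, other assignment rules, clusters at or above the median score, other minimums, the replicate block, removal of clusters overlapping control IP clusters, each replicate left out, and other end definitions. The members, lists of relatives, words and tests were chosen with earlier results of these data known. The named genes are the members, at most 3 called genes per list of relatives with the largest difference, the most similar gene for members with clusters in at least 9 of the lists, and USP15 and RAD51C. Software was scipy 1.17.1, pandas 2.3.3, numpy 2.4.6, matplotlib 3.10.9 and pysam 0.24.0 under Python 3.11.15. PolyA sites and regulated genes from the study's own tables were not used here.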

Additional observations from a re-analysis of the deposited data

How the results depend on the processing

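Genes called higher and lower in IP than in own inputs, 609 and 480, became 3247 and 1 without scaling to list length, 402 and 74 with clusters overlapping control IP clusters removed, and 0 and 0 with only clusters of at least the median score, with the replicate block, and without any 1 replicate (0 to 0). With the replicate block on unscaled numbers, added after the data were seen, they were 1653 and 0. For the fits without a replicate and with the block, fewer labelings are possible, which sets a higher smallest p; the cause of the other changes was not tested. Named genes called higher, 0, became 4 without scaling and 1, AKAP13, by covered nucleotides, with at least 10 clusters, with clusters overlapping control IP clusters removed, and with the unscaled replicate block. Sites called, 990, became 0 at or above the median score, with at least 2 lists, with the replicate block, and without any 1 replicate (0 to 0). Genes whose SCAF4 and SCAF8 IP lists did not overlap, 1229, became 371 without scaling and 795 at or above the median score, and the 2 named ones became 1 without scaling, 0 at or above the median score and 1 with at least 10 clusters. IP clusters of the named genes near an early end, 15.1%, became 48.4% with transcripts of any type and 7.55% within 200 nt, and ranged from 13.7% to 16% without each replicate. Those in an early last exon, 14.5%, became 28.9% with transcripts of any type. Shares over all genes were not computed under these other definitions, so the comparison with other genes holds for the main definition only.

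None of the differences that changed sign was called in the main tests. Of the values with the changed sign, only that of DNAJB6 in unscaled numbers against own inputs was called (adjusted p = 0.0246, exact permutation). Against own inputs, DNAJB6 (-0.0328 per 10000) became 4.33 in unscaled numbers with and without the block, 0.390 by covered nucleotides, 0.868 at or above the median score, 0.377 with control IP clusters removed, and ran from -0.759 (without replicate 1) to 0.340 (without replicate 2), with 0.321 without replicate 3. BCL11A became 0.5 in unscaled numbers, with and without the block, and ran from -0.398 (without replicate 2) to 0.142 (without replicate 3), and CNTLN became 0.667 in unscaled numbers, with and without the block. HP1BP3 ran from -0.403 (without replicate 2) to 0.839 (without replicate 1), and became -0.560 with control IP clusters removed. Against control IP, DNAJB6 became 5.33 in unscaled numbers, with and without the block, and ran from -1.31 (without replicate 1) to 1.75 (without replicate 3), COX10 became 1.33 in unscaled numbers, with and without the block, and HP1BP3 became -0.305 at or above the median score. AKAP13 kept its sign in the 13 alternatives against inputs and the 12 against control IP. Per 10000 clusters, the replicate block changed no call of a named gene. In unscaled numbers against own inputs it removed the calls of DNAJB6, HP1BP3 and DNAJC12 (adjusted p = 0.0647, 0.0835 and 0.0662, exact permutation). The lists hold clusters and no read depth, which limits the precision of all these values.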

Other observations

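Reading the printed sequences showed repeated GAAGA-type words, and their count was added after this had been seen. GAAGA was present in the 100 nt around 18 of the 34 recurrent sites of the named genes (52.9%), against 31.9% of the 41306 recurrent sites of all genes, and around 38.2% of all 68 IP sites against 30.0%. Purine-rich words of this kind are known from exonic splicing enhancers. The word was chosen from these same sequences, so the difference is a description and has no test.

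Of the 34 recurrent sites of the named genes, 26.5% spanned a 5′ splice site and 17.6% a 3′ splice site, against 34.3% and 29.3% of the 36128 recurrent sites in protein-coding genes. Both shares were lower in the named genes, and neither was tested. Both DNAJC12 sites and 5 of the 25 HP1BP3 sites spanned a 5′ splice site, whereas no site of COX10, BCL11A, CNTLN or ZC3HAV1 did.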
